A study of Homo sapiens with 4 samples.

Results

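The ERBB receptors are a family of membrane tyrosine kinases, and the EGF-like ligands are the growth factors that bind them. Transcripts of 10 of these genes were followed: the receptors EGFR, ERBB2 and ERBB3, the EGFR ligands EREG, AREG, HBEGF, TGFA, BTC and EPGN, and the neuregulin NRG1. They were picked out of the tables by gene symbol, and the set was drawn up with earlier results of these data known. All 10 were found among the 61228 gene symbols of the count tables, and all 10 were among the 19159 genes with enough counts to be tested.

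The samples were cultures of H1792, a long established line from human lung cancer, whose genotype is labelled WT, meaning that no engineered change is given. The cells were kept for 96 h in serum-containing medium with the solvent DMSO (2 libraries) or with ACBI1 (2 libraries). ACBI1 is a PROTAC that brings the VHL ubiquitin ligase to SMARCA2, SMARCA4 and PBRM1, components of the SWI/SNF chromatin remodelling complexes, so that these proteins are degraded. The labels write the dose as 1 mM, a unit that could not be checked from the counts and is high for a molecule of this kind. Nothing in the labels says that the 2 libraries of a group came from separate cultures, so p-values measure the spread between these libraries, which may be technical. The comparison asked how transcript levels differed between ACBI1 and DMSO.

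When an EGF-like ligand binds, 2 receptors pair and phosphorylate each other, which feeds the RAS-MAPK and PI3K-AKT pathways. EGFR binds EGF, TGFA, AREG, HBEGF, BTC, EREG and EPGN, while ERBB3 and ERBB4 bind the neuregulins. ERBB2 has no known ligand of its own and serves as a partner of the others, and ERBB3 has little kinase activity. The ligands are made as membrane-anchored precursors that proteases cut free. In the airway epithelium these ligands act on the cells that make them and on their neighbours during growth and wound repair.

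Between 64281850 and 86010100 reads per library were assigned to genes, and 13.89% to 15.36% of the listed reads were given to no gene. Levels are given as CPM, counts per 1000000 counts of a library after scaling. Over genes, which are no replicates of each other, log2 CPM correlated with r = 0.983 between the DMSO libraries and r = 0.986 between the ACBI1 libraries. SMARCA4 transcripts had a log2 change of 0.70 (edgeR adjusted p 0.0583), SMARCA2 one of -0.40 (0.163) and PBRM1 one of 0.10 (0.734). A degrader acts on protein, so these transcripts do not check the labels. Of the lists of cell type markers, the epithelial one had 5 of 6 genes at a mean of 1 CPM or more, with CDH1, which encodes E-cadherin, at 0.0491 to 0.222 CPM. Its summed level was 982 and 1035 CPM with DMSO, against 323 and 202 CPM with ACBI1. Most of that sum was KRT7, at a mean of 679 CPM with DMSO, while EPCAM went from a mean of 4.08 to 10.2 CPM and was not called (log2 change 1.32, edgeR adjusted p 0.179). None of the 4 lung adenocarcinoma lineage markers reached 1 CPM, and NKX2-1, a defining transcription factor of that lineage, had 0 counts in all 4 libraries. None of the 4 blood or immune markers reached 1 CPM, and their summed level was at most 0.167 CPM. The fibroblast list, with 3 of 3 genes at 1 CPM or more, summed to 21.1 and 59.0 CPM with DMSO and to 8.77 and 11.8 CPM with ACBI1. The endothelial list, with 1 of 3 genes at that level, summed to 12.6 and 48.5 CPM with DMSO and to 0.0112 and 0.0458 CPM with ACBI1, nearly all of it PECAM1. CDH5, a defining endothelial marker, was at 0.0246 and 0.0556 CPM with DMSO and had 0 counts with ACBI1. These marker sums moved with the treatment, and their part in the results below was not tested.

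Of the 10 genes, 3 fell with ACBI1 (HBEGF, TGFA and BTC) and 0 rose, at a Benjamini-Hochberg adjusted p under 0.05 in edgeR's quasi-likelihood test, the threshold used for every call below. Over all 19159 genes tested, 17.4% were called, 10.6% lower and 6.75% higher. Another 1 of the 10, ERBB2, had an unadjusted p under 0.05, which makes 4 with the called genes, all lower. An unadjusted p under 0.05 in the same test was reached by 6490 of the 19159 genes tested. DESeq2 and limma-voom also called 3 of the 10 and none higher, and they called 23.5% and 17.3% of all genes tested. The 3 called genes are all ligands of EGFR, 3 of 6 such ligands in the set, while 0 of 3 receptors were called. The median log2 change was -0.51 over the 10 genes and -1.19 over the 6 EGFR ligands, against 0.01 over all genes tested. Both ACBI1 libraries lay below both DMSO libraries for 5 of the 10 genes, as for 32.2% of all genes tested, and above them for 2 of the 10, as for 31.1%. In bulk RNA, fewer cells with a transcript and less of it per cell cannot be told apart.

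EGFR was the most abundant of the 10 transcripts and was not called. Its level was 447 and 434 CPM under DMSO, against 506 and 598 CPM under ACBI1, or 441 ± 9.41 and 552 ± 65.6 (SD, n = 2). Both ACBI1 libraries were higher, with no overlap between the groups. The log2 change was 0.32 (SE 0.18, edgeR adjusted p 0.251), with a 95% interval from -0.11 to 0.76. The gene lies at chr7:55019021-55211628 (GRCh38), and 1.49% of its exon length overlaps an antisense gene, EGFR-AS1.

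ERBB2, the ligandless partner receptor, was measured at 42.0 and 50.2 CPM with DMSO and at 30.9 and 35.4 CPM with ACBI1. Both ACBI1 libraries were lower, with no overlap. The log2 change of -0.48 (SE 0.17) had a 95% interval from -0.90 to -0.06 and did not pass after adjustment (unadjusted p 0.0322, edgeR adjusted p 0.112). ERBB2 lies at chr17:39687914-39730426, and exons of MIEN1 and PGAP3 overlap 7.41% of its exon length. ERBB3, at chr12:56076799-56103505, was scarce, with 0.295 and 1.57 CPM under DMSO and 0.469 and 1.40 CPM under ACBI1. The groups overlapped, and the libraries within each group differed more than the groups did. The fitted log2 change was -0.000133, with a 95% interval from -1.95 to 1.95, so a change of several fold in either direction was not detectable. Its sign was positive without DMSO replicate 2 (1.65) and without ACBI1 replicate 1 (0.60), and negative without either of the other libraries. EGFR made up 89.7% and 87.3% of the summed length-scaled level of the 3 receptors with DMSO and 93.0% in each ACBI1 library.

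**Figure D1:**
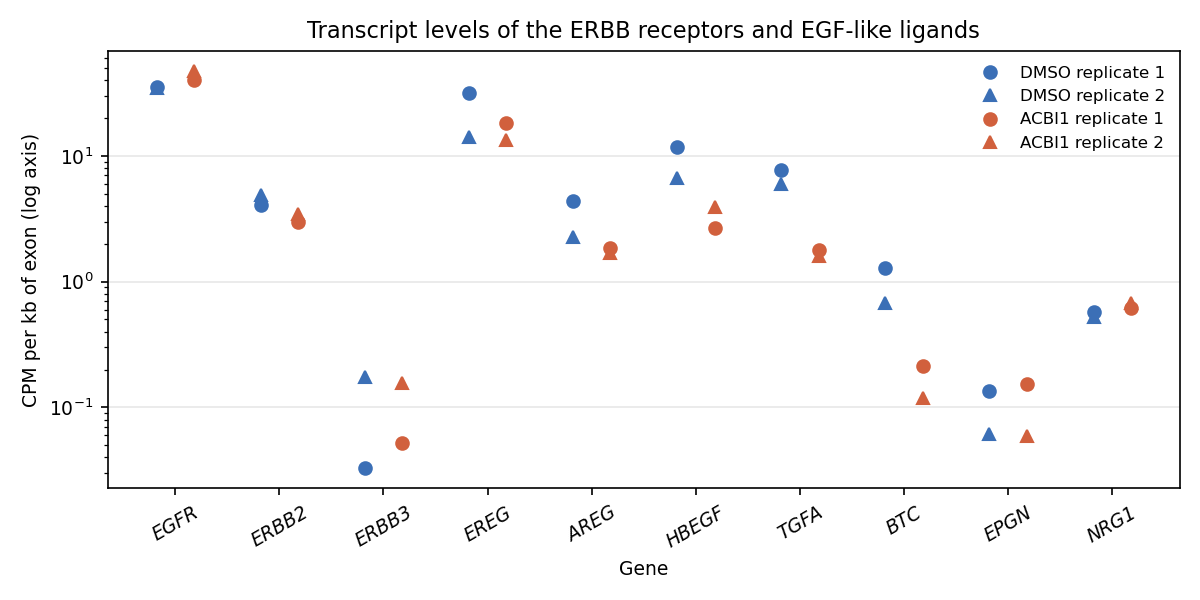
Level of each of the 10 genes in each library, in CPM per kb of exon on a log axis, with DMSO in blue, ACBI1 in orange, circles for replicate 1 and triangles for replicate 2. The groups do not overlap for the called genes TGFA, HBEGF and BTC, all lower with ACBI1, with the libraries closest for HBEGF. Nor do they overlap for ERBB2 and AREG (lower) or EGFR and NRG1 (higher), which were not called. They overlap for ERBB3, EREG and EPGN. Of all genes tested, 32.2% were lower without overlap and 31.1% higher.

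Divided by exon length, which allows genes to be compared, the mean levels with DMSO ran from EGFR (35.2 CPM per kb of exon) through EREG (23.1), HBEGF (9.20), TGFA (6.86), ERBB2 (4.47), AREG (3.32), BTC (0.977), NRG1 (0.548) and ERBB3 (0.103) to EPGN (0.0984). Neighbours in this order whose libraries overlapped were HBEGF and TGFA, ERBB2 and AREG, and ERBB3 and EPGN. With ACBI1 the order was EGFR (44.1), EREG (15.8), HBEGF (3.32), ERBB2 (3.21), AREG (1.77), TGFA (1.69), NRG1 (0.644), BTC (0.167), EPGN (0.106) and ERBB3 (0.104). In this second order, neighbours whose libraries overlapped were HBEGF and ERBB2, AREG and TGFA, BTC and EPGN, and EPGN and ERBB3. TGFA thus stood above ERBB2 with DMSO and below it with ACBI1. EGFR stayed above each of its ligands in all 4 libraries.

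The start regions of HBEGF, TGFA and BTC are shown because these genes were called lower. That of AREG is shown because it is a ligand of the same cluster as BTC with a match to a motif. EGF, a ligand outside the set of 10, is shown because it had a larger fitted fall. Each window runs from 250 bases before to 50 bases after the gene's start in RefSeq (GRCh38.p14), 5′ to 3′ on the gene's strand. The windows are chr5:140346554-140346853 (minus strand) for HBEGF, chr2:70553777-70554076 (minus) for TGFA, chr4:74794474-74794773 (minus) for BTC, chr4:74444886-74445185 (plus) for AREG and chr4:109912633-109912932 (plus) for EGF. Capitals mark a match to 1 of 4 motifs searched on both strands: AP-1 (TGANTCA), CRE (TGACGTCA), TEAD (ACATTCC) and NF-kB. For NF-kB, 1 fixed sequence of 10 bases was searched, so other forms of its site were not looked for.
HBEGF: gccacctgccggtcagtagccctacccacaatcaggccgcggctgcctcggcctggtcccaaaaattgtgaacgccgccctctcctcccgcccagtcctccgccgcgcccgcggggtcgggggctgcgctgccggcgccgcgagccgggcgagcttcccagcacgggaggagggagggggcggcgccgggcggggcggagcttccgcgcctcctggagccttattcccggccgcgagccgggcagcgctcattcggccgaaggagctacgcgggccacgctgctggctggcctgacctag
TGFA: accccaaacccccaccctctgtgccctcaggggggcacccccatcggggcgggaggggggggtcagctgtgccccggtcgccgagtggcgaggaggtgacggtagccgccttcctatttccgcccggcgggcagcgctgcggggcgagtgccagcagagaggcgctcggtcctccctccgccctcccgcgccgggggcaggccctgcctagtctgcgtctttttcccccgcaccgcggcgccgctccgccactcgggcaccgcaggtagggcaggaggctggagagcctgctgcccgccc
BTC: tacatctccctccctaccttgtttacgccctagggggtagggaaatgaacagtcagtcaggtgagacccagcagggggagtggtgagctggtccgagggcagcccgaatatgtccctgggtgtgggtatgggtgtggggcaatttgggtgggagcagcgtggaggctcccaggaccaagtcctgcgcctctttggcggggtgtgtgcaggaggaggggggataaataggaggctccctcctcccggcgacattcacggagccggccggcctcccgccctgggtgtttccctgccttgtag
AREG: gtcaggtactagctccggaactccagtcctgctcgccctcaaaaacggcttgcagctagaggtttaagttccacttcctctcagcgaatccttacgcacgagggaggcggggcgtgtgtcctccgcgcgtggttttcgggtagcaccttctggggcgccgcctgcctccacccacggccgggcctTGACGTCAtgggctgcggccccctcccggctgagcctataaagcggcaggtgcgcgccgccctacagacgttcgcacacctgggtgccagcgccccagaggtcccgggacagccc
EGF: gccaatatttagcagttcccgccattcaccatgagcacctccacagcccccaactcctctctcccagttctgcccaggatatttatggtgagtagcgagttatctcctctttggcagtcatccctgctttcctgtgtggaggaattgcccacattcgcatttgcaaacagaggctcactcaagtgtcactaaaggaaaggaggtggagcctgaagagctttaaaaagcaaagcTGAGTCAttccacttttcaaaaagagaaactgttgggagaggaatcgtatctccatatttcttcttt

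The HBEGF, TGFA and BTC windows held none of the 4 motifs, which says only that these letters are not in those windows. The AREG window held the CRE letters 65 bases before the start, as did 1.848% of the 35116 windows in the RefSeq table. The EGF window held the AP-1 letters TGAGTCA 17 bases before the start, and 7.709% of all windows held an AP-1 match. TEAD letters occurred in 3.463% of all windows and NF-kB letters in 0.191%. Among the 10 windows listed for 8 of the 10 genes, the other matches were to AP-1: TGAGTCA and TGACTCA 232 and 136 bases before an inner start of EGFR, and TGATTCA 222 bases before the start of ERBB2. The G and C content was 75.0% in the HBEGF window, 75.3% in the TGFA window shown and 63.0% in the BTC window, against a median of 58.7% over all windows. ERBB3 and NRG1 are not shown.

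TGFA, which encodes transforming growth factor alpha, fell in every fit. It was measured at 38.5 and 29.6 CPM with DMSO and at 8.85 and 7.96 CPM with ACBI1, 34.0 ± 6.34 and 8.40 ± 0.626 (SD, n = 2). Every ACBI1 value was far below every DMSO value. TGFA was 4.05-fold lower, a log2 change of -2.02 (SE 0.21, edgeR adjusted p 0.00454), and it was called in every alternative fit, with values from -2.20 to -1.81 when 1 library was left out. The gene lies at chr2:70447280-70554193, and no exon of another gene overlaps it.

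HBEGF encodes heparin-binding EGF-like growth factor and lies at chr5:140332843-140346631. It was measured at 35.4 and 20.2 CPM with DMSO and at 8.10 and 11.9 CPM with ACBI1, 27.8 ± 10.7 and 10.0 ± 2.71 (SD, n = 2). The groups did not overlap, although the DMSO libraries differed 1.75-fold. HBEGF was 2.78-fold lower, a log2 change of -1.47 (SE 0.33, edgeR adjusted p 0.0334). Without ACBI1 replicate 1 the log2 change was -1.21 and the call was lost (adjusted p 0.118); over the 4 fits with 1 library left out it ranged from -1.83 to -1.01.

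BTC encodes betacellulin, which binds both EGFR and ERBB4. It was scarce, with 294 and 136 counts in the DMSO libraries and 54 and 22 in the ACBI1 libraries, or 3.61 and 1.89 CPM against 0.603 and 0.336 CPM. Both ACBI1 libraries were low, with no overlap. BTC was 5.80-fold lower, the largest called fall of the 10 genes by its fitted value, with a log2 change of -2.54 (SE 0.50, edgeR adjusted p 0.0236) and a 95% interval from -3.76 to -1.31. Without ACBI1 replicate 2 the log2 change was -2.20 and the call was lost (adjusted p 0.0652), and with each library left out in turn it ranged from -3.02 to -1.99.

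EREG, which encodes epiregulin, was the most abundant ligand in every library and was not called. It was measured at 183 and 81.5 CPM with DMSO and at 105 and 76.2 CPM with ACBI1. DMSO replicate 1 stood well above the other 3 libraries, which overlapped. The log2 change of -0.54 (SE 0.38, edgeR adjusted p 0.369) had a 95% interval from -1.48 to 0.39. Without DMSO replicate 1 it was 0.16 (adjusted p 0.719), and without DMSO replicate 2 it was -1.02 (adjusted p 0.0148). With all 4 libraries, EREG was called lower when no filter on low counts was used (adjusted p 0.0450) and in the fit that blocks on replicate number (adjusted p 0.0484).

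AREG, which encodes amphiregulin, was at 7.23 and 3.71 CPM with DMSO and at 3.05 and 2.78 CPM with ACBI1. Both ACBI1 libraries were lower, with no overlap, but the second DMSO library lay close to them. The log2 change of -0.91 (SE 0.39) was not called (edgeR adjusted p 0.160, 95% interval from -1.85 to 0.04). It was -0.34 without DMSO replicate 1 and -1.32, with a call, without DMSO replicate 2 (adjusted p 0.0434). EPGN, which encodes epigen, had 20 and 8 counts with DMSO and 25 and 7 with ACBI1. The groups overlapped, the log2 change was 0.13 (edgeR adjusted p 0.913), and its 95% interval from -1.51 to 1.78 leaves a change of several fold undetectable in these libraries. Its sign was negative without DMSO replicate 2 (-0.32) and without ACBI1 replicate 1 (-0.73).

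The spread between the DMSO libraries was itself shared by several ligands. DMSO replicate 1 exceeded DMSO replicate 2 by 2.24-fold for EREG, 2.21-fold for EPGN, 1.95-fold for AREG, 1.91-fold for BTC, 1.75-fold for HBEGF and 1.30-fold for TGFA, after scaling for depth. For EREG, 91.6% of all genes tested differed by as little or less between these libraries, and for TGFA 57.6% did. EGFR differed by 1.03-fold, while ERBB3 went the other way, at 0.188 of its level in replicate 2. Between the ACBI1 libraries, replicate 1 was also the higher for EPGN (2.62-fold), BTC (1.80-fold), EREG (1.38-fold), TGFA (1.11-fold) and AREG (1.10-fold). There HBEGF was lower in replicate 1, at 0.679 of its level in replicate 2. The treatment difference of TGFA and BTC was larger than the spread between the DMSO libraries in every pair of libraries, and that of HBEGF and EREG was not.

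NRG1, the neuregulin of the set and a ligand of ERBB3 and ERBB4, was at 6.53 and 5.88 CPM with DMSO and at 6.96 and 7.64 CPM with ACBI1. Both ACBI1 libraries were slightly higher, with no overlap. The log2 change of 0.23 (SE 0.24) was not called (edgeR adjusted p 0.549), with a 95% interval from -0.36 to 0.83.

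**Figure D2:**
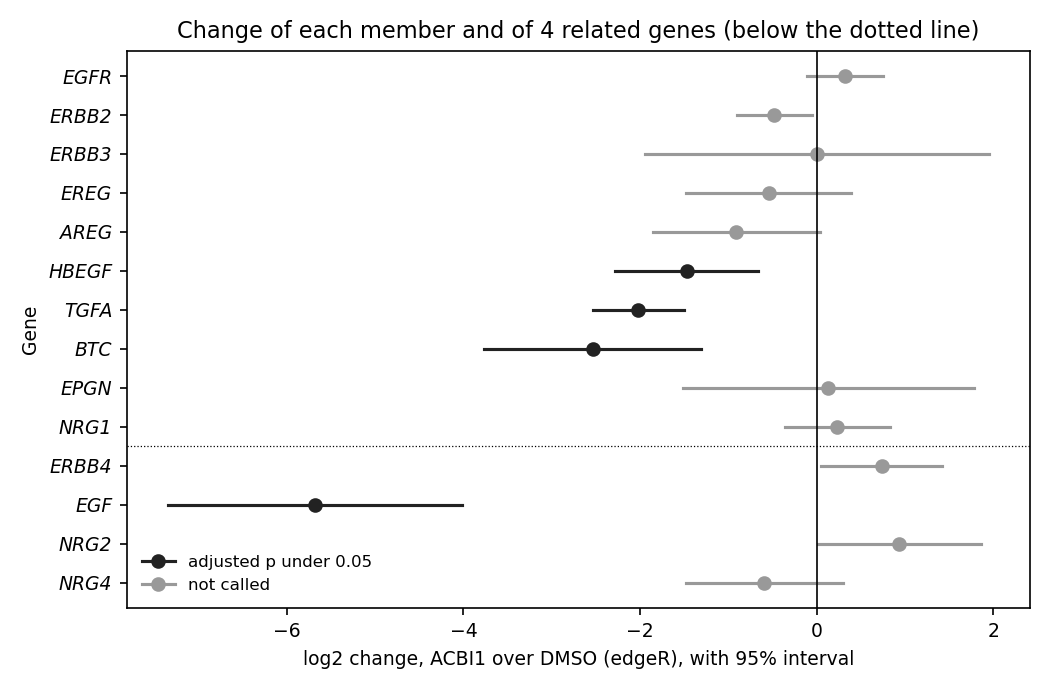
Log2 change with ACBI1 over DMSO for the 10 genes and for ERBB4, EGF, NRG2 and NRG4 below the dotted line, each with its 95% interval from edgeR. Black points were called: HBEGF (-1.47), TGFA (-2.02), BTC (-2.54) and EGF (-5.68), all lower with ACBI1.

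The family has 5 further genes, of which 4 could be tested, 1 fell and 0 rose, where 10.6% of all genes tested fell and 6.75% rose. EGF, which encodes the founding ligand of EGFR, had 263 and 423 counts with DMSO and 12 and 2 with ACBI1, or 3.23 and 5.88 CPM against 0.134 and 0.0305 CPM. Both ACBI1 libraries were close to 0. The log2 change was -5.68 (SE 0.68, edgeR adjusted p 0.00644), and EGF was called in every alternative fit that tested it, with -7.13 without ACBI1 replicate 1 and -5.08 without ACBI1 replicate 2. EGF lies at chr4:109912884-110012266, far from the other EGF-like ligands of that chromosome. ERBB4, the other neuregulin receptor, was at 3.02 and 2.79 CPM with DMSO and at 5.18 and 4.51 CPM with ACBI1 (log2 change 0.74, edgeR adjusted p 0.127). NRG2 was at 4.46 and 8.90 CPM with DMSO and at 10.7 and 14.8 CPM with ACBI1. Its log2 change of 0.93 (edgeR adjusted p 0.144) became 1.51, with a call, without DMSO replicate 2 (adjusted p 0.0144), and NRG2 was also called with no filter on low counts (adjusted p 0.0146). In a fit that blocks on replicate number, both were called higher, ERBB4 at 0.74 (edgeR adjusted p 0.0289) and NRG2 at 1.00 (edgeR adjusted p 0.00170). NRG4, with 38.1% of its exon length overlapped by FBXO22, had a log2 change of -0.59 (edgeR adjusted p 0.308). NRG3 had 0 counts in all 4 libraries, which allows up to 0.0335 to 0.0458 CPM at 3 counts per library and covers counting error only.

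The make-up of the EGFR ligand transcripts differed between the groups. The 6 ligands of the set summed to 57.2 and 29.9 CPM per kb of exon with DMSO and to 25.0 and 20.7 with ACBI1. Both ACBI1 sums were lower, although DMSO replicate 2 lay nearer to them than to the other control. EREG held 55.8% and 47.7% of the sum with DMSO and 73.3% and 64.2% with ACBI1, 51.8 ± 5.74% and 68.8 ± 6.41% (SD, n = 2). TGFA held 13.6% and 19.9% with DMSO and 7.12% and 7.73% with ACBI1. HBEGF held 20.5% and 22.4% with DMSO and 10.7% and 19.1% with ACBI1, where its share differed more between the libraries than with DMSO. BTC held 2.24% and 2.25% with DMSO and 0.855% and 0.574% with ACBI1, while the share of AREG ranged from 7.39% to 8.12% over all 4 libraries and the groups overlapped. These shares were not tested, since an exact permutation test of 2 against 2 libraries cannot go below 0.3333. Shares of 1 sum are not independent: a smaller share of TGFA raises that of EREG.

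**Figure D3:**
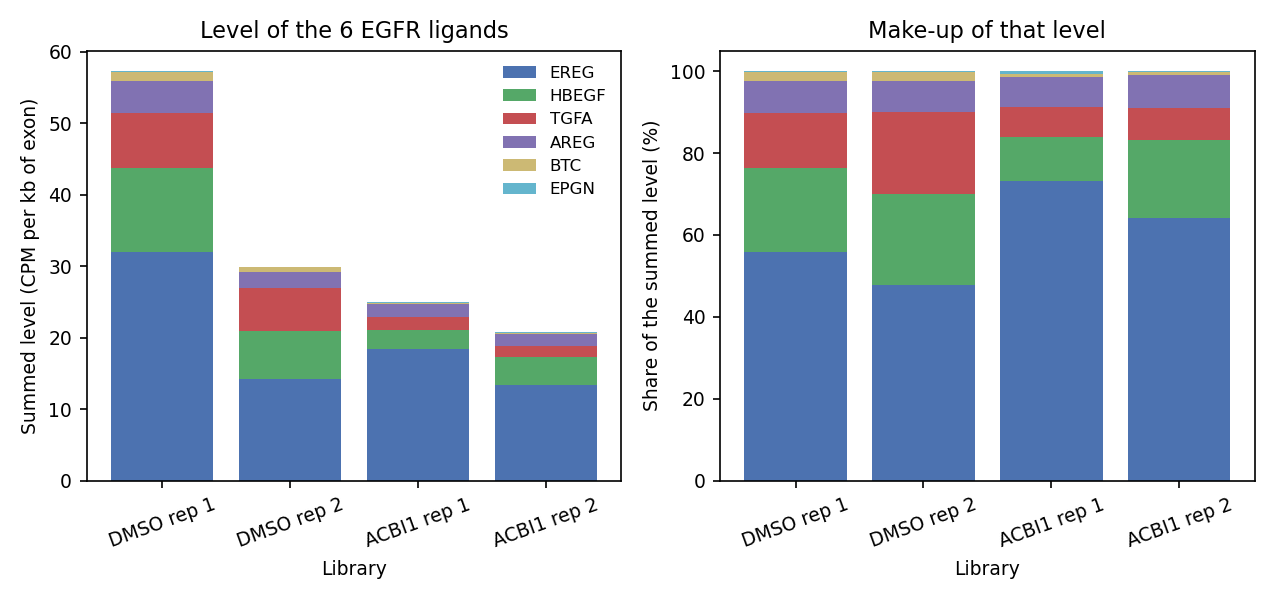
Summed level of the 6 EGFR ligands in each library, in CPM per kb of exon (left), and the percentage of that sum held by each ligand (right). The sum was 57.2 and 29.9 with DMSO and 25.0 and 20.7 with ACBI1, and the EREG share was above 60% in both ACBI1 libraries alone.

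Genes that act with the ligands and receptors were taken as 4 lists. Ligand release is carried out by the proteases ADAM10 and ADAM17, with RHBDF1 and RHBDF2 escorting ADAM17 to the cell surface, the rhomboid protease RHBDL2 and the convertase FURIN. All 6 were tested, 2 fell and 0 rose, where 10.6% of all genes tested fell and 6.75% rose, and the median log2 change was -0.75. RHBDF1 had a log2 change of -0.83 (edgeR adjusted p 0.0317) and RHBDL2, at under 1.1 CPM in each library, one of -2.37 (edgeR adjusted p 0.0467). ADAM17 (-0.67, adjusted p 0.0568), ADAM10 (-0.63, 0.0708), FURIN (-1.01, 0.0546) and RHBDF2 (-0.54, 0.1096) were not called, and for all 6 both ACBI1 libraries lay below both DMSO libraries, as for 32.2% of all genes tested. The number called was 1 without DMSO replicate 2, without ACBI1 replicate 1 or without ACBI1 replicate 2, and 5 with DESeq2 or with no filter. Of the 27 adaptors and RAS-MAPK or PI3K transducers, 0 fell and 1 rose (3.7% called, against 17.4% of all genes tested), with a median log2 change of 0.11. In edgeR, 8 of the 27 had an unadjusted p under 0.05, as had 6490 of the 19159 genes tested. The gene that rose was HRAS (log2 change 0.83, edgeR adjusted p 0.0318), and 0 of the 27 were called without ACBI1 replicate 1 or without ACBI1 replicate 2.

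Feedback inhibitors of the pathway and genes for receptor degradation made up a list of 20, of which 7 (35%) fell and 0 rose, against 10.6% and 6.75% of all genes tested, with a median log2 change of -0.35. DUSP5 and DUSP4, which encode phosphatases that switch off MAP kinases, had log2 changes of -3.00 (edgeR adjusted p 0.00141) and -2.58 (edgeR adjusted p 0.00259). The mean of DUSP5 was 112 ± 9.79 CPM under DMSO against 14.0 ± 1.78 CPM under ACBI1 (SD, n = 2). SPRED3 (-2.17, edgeR adjusted p 0.00651) and SPRY2 (-1.63, edgeR adjusted p 0.0384), inhibitors of RAS-MAPK signalling, also fell. Their relatives in the list were not called: DUSP6 (-0.33, edgeR adjusted p 0.446), SPRED1 (-0.01, 0.961), SPRED2 (0.17, 0.483), SPRY1 (-0.94, 0.154) and SPRY4 (-0.76, 0.107). Of the exon length of DUSP6, 40.5% is overlapped by AC024909.2. The other called genes act on receptor turnover, and they were named after their values were seen. They were LRIG1 (-1.61, with 12.9% of its exon length overlapped by SLC25A26), a membrane protein that promotes loss of ERBB receptors, CBLB (-1.52), a ubiquitin ligase for active receptors, and RNF41 (-0.78), a ubiquitin ligase for ERBB3. ERRFI1, an inhibitor that binds EGFR itself, was at 178 and 164 CPM with DMSO and at 221 and 508 CPM with ACBI1 and was not called (log2 change 1.09, edgeR adjusted p 0.101).

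Transcription factor and other genes known to respond to MAPK signalling formed a list of 17, of which 6 fell and 1 rose (41.2% called, against 17.4% of all genes tested), with a median log2 change of -0.46. IER3, an immediate early gene, averaged 1044 ± 340 CPM under DMSO against 81.0 ± 26.1 CPM under ACBI1 (SD, n = 2). It fell by 3.69 on the log2 scale (edgeR adjusted p 0.00366), with 26.5% of its exon length overlapped by IER3-AS1. EPHA4, an ephrin receptor, had a log2 change of -3.90 (edgeR adjusted p 0.0136) at low counts. The zinc finger factors EGR3 (-2.70, edgeR adjusted p 0.0151) and EGR2 (-2.40, edgeR adjusted p 0.0251) also fell. Their DMSO libraries lay far apart, at 5.04 and 10.6 CPM for EGR3 and 7.28 and 19.6 CPM for EGR2. Named after their values were seen, the other calls were falls of ETV1 (-1.95) and EGR1 (-1.17) and the rise of the secreted neuropeptide precursor VGF (1.21). Relatives of ETV1 in the list, ETV4 (-0.18, edgeR adjusted p 0.478) and ETV5 (-0.46, 0.0985), were not called. The number of calls was 4 without ACBI1 replicate 1. Within the list, MYC (0.68, adjusted p 0.104) and CCND1 (0.20, adjusted p 0.561) had fitted values above 0 and were not called by edgeR.

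**Figure D4:**
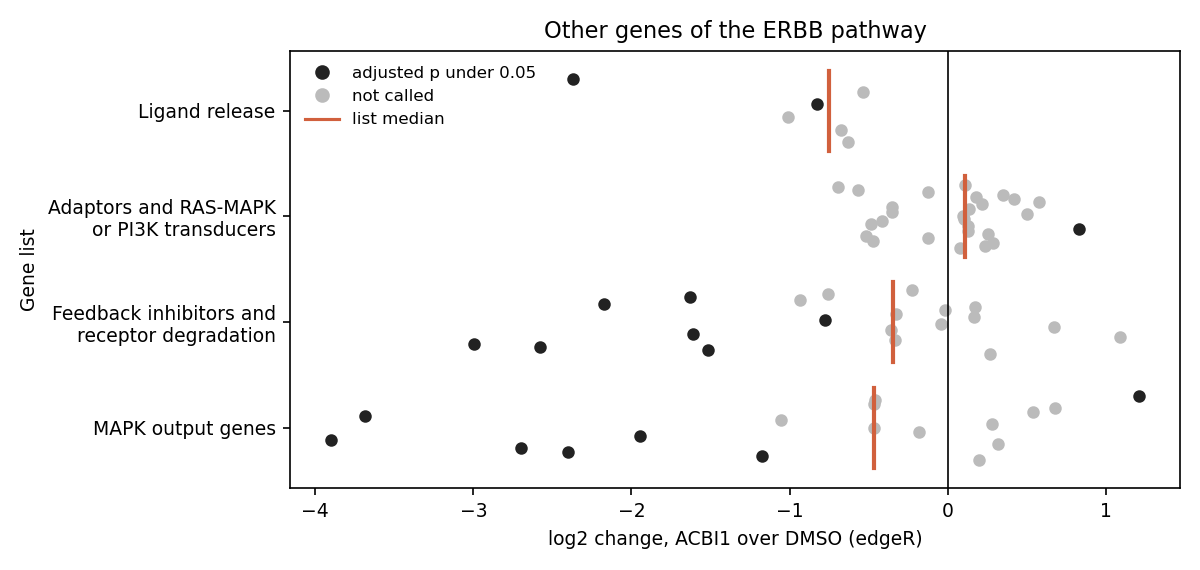
Log2 change with ACBI1 over DMSO of each tested gene in 4 lists of the ERBB pathway, 1 point per gene, black where called by edgeR, with the list median as a vertical bar. The medians were -0.75 for ligand release, 0.11 for adaptors and transducers, -0.35 for feedback inhibitors and receptor degradation and -0.46 for MAPK output genes.

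EPGN, EREG, AREG and BTC lie next to each other on chromosome 4, at chr4:74308473-74315307, chr4:74365143-74388751, chr4:74445134-74455009 and, on the minus strand, chr4:74744759-74794686, over 486.2 kb in all. In chromosomal order, their log2 changes were 0.13 for EPGN, -0.54 for EREG, -0.91 for AREG and -2.54 for BTC, the single one of the 4 called. The 95% intervals of EPGN (-1.51 to 1.78), EREG (-1.48 to 0.39) and AREG (-1.85 to 0.04) overlapped. Differences between the 4 genes were not tested. Within 500 kb on either side were 10 further protein-coding genes, of which 7 were tested, 5 fell and 0 rose. Over all genes tested, 10.6% fell and 6.75% rose. The genes that fell were the chemokines CXCL6 (-4.93, edgeR adjusted p 0.00434), CXCL1 (-4.90, edgeR adjusted p 0.00141), CXCL5 (-3.32, edgeR adjusted p 0.00922), CXCL3 (-3.19, edgeR adjusted p 0.00971) and CXCL2 (-2.77, edgeR adjusted p 0.00571), which attract neutrophils. CXCL1 averaged 467 ± 82.4 CPM under DMSO against 15.6 ± 4.57 CPM under ACBI1 (SD, n = 2). CXCL1, CXCL2 and CXCL3 are similar in sequence, so reads that aligned to several of them could have been given to no gene. MTHFD2L, a mitochondrial folate enzyme gene between the chemokines and EPGN, had a log2 change of -0.36 (edgeR adjusted p 0.372), and the platelet factor variant PF4V1 one of -0.54 (edgeR adjusted p 0.490). PF4, PPBP and PARM1 had too few counts to be tested. No exon of another gene overlaps the 4 ligand genes.

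**Figure D5:**
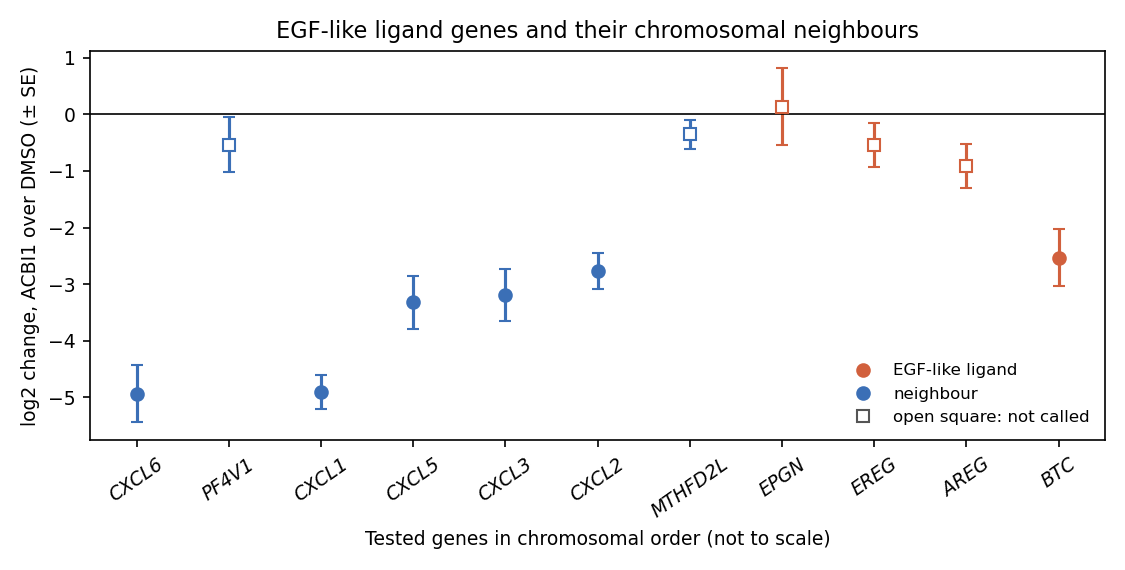
Log2 change with ACBI1 over DMSO, with its SE, of the tested genes in the chromosome 4 window, in chromosomal order and not to scale, with EGF-like ligands in orange, other genes in blue and uncalled genes as open squares. The 5 chemokine genes lay between -4.93 and -2.77, and among the ligand genes BTC alone was called, at -2.54.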

How the data were processed

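RNA-seq was measured in 4 libraries, 2 with DMSO and 2 with ACBI1, grouped and numbered by their titles. The authors deposited whole-number read counts per gene symbol, not normalized. Reads were aligned with TopHat2 2.1.1 and counted with HTSeq 0.11.0 on hg38, per the submitters' processing notes; the annotation and strand setting are not given in the sources used here, so reads of overlapping or antisense genes can be misassigned. Lines for reads given to no gene (13.89% to 15.36%) entered neither the library sizes nor the tests.

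Genes were filtered with filterByExpr (minimum count 10, total 15), scaled by TMM and then tested by edgeR (version 4.0.16, R 4.3.3; quasi-likelihood, two-sided, treatment alone), with Benjamini-Hochberg adjustment over all 19159 genes. The common biological coefficient of variation was 0.244. CPM use TMM-scaled library sizes. Levels per kb use the union of exons in GENCODE release 29 (GRCh38), matched by symbol (36405 of 61228 symbols matched 1 gene), which is also the source of gene positions. Replicates differed by more than sampling noise (chi-square per degree of freedom 161 for DMSO and 105 for ACBI1) and were counted separately.

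The 10 genes, the lists and the naming rule were chosen with earlier results of these data known. Named by the rule were all 10 genes, the other family genes, at most the 4 called genes of each list with the largest change, the chromosomal neighbours, and the 3 genes closest to the member with the largest called fall. Further genes of the lists, called and not called, were named outside the rule, after their values were seen. Alternatives were DESeq2 size factors, library size only, no filter, a mean of at least 5 CPM, DESeq2 1.42.0, limma-voom (limma 3.58.1), the replicate number as a block, a threshold of 0.01, each library left out in turn (the lone library of a group is then assumed to vary like the others) and, for ligand shares, no length scaling; scaling by the longest transcript was added after seeing the data. The scripts were tested on simulated data.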

Additional observations from a re-analysis of the deposited data

How the results depend on the processing

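None of the 10 genes was called higher under any setting run. Over the 7 other fits on 4 libraries, 57 of 66 log2 changes of the 10 genes kept their direction and call, 0 calls were lost, 4 were gained and 5 signs changed, all 5 of them of ERBB3. Over the 4 fits without a library, 31 of 40 kept both, 2 calls were lost, 2 were gained and 5 signs changed. The number called among the 10 was 1 at a threshold of 0.01 and 2 to 5 without a library. Over all genes tested in each setting it was 5518 of 32871 with no filter (16.8%) and 783 of 19159 at 0.01 (4.09%). Without a library, the number called over all genes tested was 1379 to 4292. The former was of 20007 genes, without ACBI1 replicate 1, and the latter of 20121 genes, without DMSO replicate 1.

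With the replicate number as a block, 6 of the 10 were called, adding ERBB2 (-0.48, adjusted p 0.00833), EREG (-0.45, 0.0484) and AREG (-0.84, 0.0260), as were ERBB4 and NRG2 (both higher), 7909 of all genes, 6 ligand release genes, 11 adaptors, 11 feedback genes and 12 MAPK output genes. Same-numbered libraries deviated together (r = 0.442 across genes), but with 2 pairs and no label on what a number marks, the numbers were not taken to pair the libraries.

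Ligand release genes called were 5 with no filter, 5 with DESeq2 and 0 at 0.01. Of all genes tested in these settings, 16.8%, 23.5% and 4.09% were called. Adaptors called were 3 with no filter, 2 at a mean of at least 5 CPM, 3 with DESeq2, 0 at 0.01 and 0 to 1 without a library. Feedback genes called were 5 to 9 without a library. MAPK output genes called were 4 at a mean of at least 5 CPM, where 14 were tested, 2 at 0.01 and 4 to 7 without a library.

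The log2 change of ERBB3 was 0.00239 with DESeq2 size factors, 0.0694 with library size only, 0.00600 with DESeq2, 0.23 with limma-voom, 0.19 with the block and -0.99 to 1.65 without a library. That of EREG was -1.02 to 0.16 and that of EPGN -0.73 to 0.82 without a library; the cause was not tested. Without length scaling, EREG held 63.9% of the ligand sum with DMSO and 80.1% with ACBI1. EPGN had 7 to 25 counts per library and ERBB3 24 to 113.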

Other observations

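Among 11082 genes outside the lists with a mean of at least 5 CPM, those whose log2 CPM lay closest to the pattern of BTC over the 4 libraries were ATP2A3, which encodes a calcium pump of the endoplasmic reticulum, ANPEP, a surface aminopeptidase, and GABRE, a subunit of the GABA-A receptor. Their Euclidean distances from BTC, on centred log2 values, were 0.194, 0.264 and 0.294. ATP2A3 had a log2 change of -2.35 (edgeR adjusted p 0.0189), ANPEP one of -2.60 (edgeR adjusted p 0.00651) and GABRE one of -2.58 (edgeR adjusted p 0.00829). With 4 libraries in 2 groups, any gene with a fall of this size and a like spread between replicates lies close, so the distances are a description.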
